A study of Mus musculus with 20 samples.

Results

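The hippocampus and the neocortex of wild-type mice were compared at 18 months of age by total RNA sequencing. Every library labelled TDP43-WT entered the comparison, 4 from hippocampus and 5 from neocortex, which is 9 of the 20 libraries of the series. These TDP-43wt mice served as controls for TDP-43KQ/KQ knock-in mice, in which a glutamine at 1 lysine of TDP-43 mimics acetylation of that residue. No group received a drug or other treatment. By their labels, the hippocampus libraries are female replicates 1, 2 and 3 (litters 6, 6 and 4) and male replicate 1 (litter 5). The neocortex libraries are female replicates 1, 2 and 3 (litters 6, 6 and 4) and male replicates 1 (litter 2) and 2 (litter 5). Below they are called female 1, male 1 and so on. These numbers are replicate labels, and whether libraries of the 2 regions share a mouse is not labelled. Both tissues were dissected by hand, frozen and pulverized whole, so each library mixes all cell types of its piece of tissue. Genes were taken by 1 rule, a value other than 0 in at least 1 library, which 20145 of 24528 genes met. Of these, 17903 were tested. The other 2242 were left out because libraries of the same sex and litter tied in both regions, which was taken as the floor of the transformation.

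Neocortex and hippocampus are both parts of the cerebral cortex, built mainly of glutamatergic projection neurons, local GABAergic interneurons and glia. The neocortex stacks its projection neurons in layers. Upper-layer neurons connect cortical areas with each other, and deep-layer neurons project to thalamus, brainstem and spinal cord. The hippocampus holds a single curved sheet of pyramidal neurons, divided into the fields CA1, CA2 and CA3, and a separate sheet of small granule neurons, the dentate gyrus. Granule neurons send mossy fibres to CA3, CA3 neurons project to CA1, and this loop is known for its part in memory. Each field is marked by transcription factors, receptors and adhesion molecules of its own.

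All values below are batch-corrected VST values, a log2-like scale on which each gene is set against its own mean in the neocortex of TDP-43KQ/KQ mice, so that 0 is that mean. A difference between regions is hippocampus minus neocortex. For well-expressed genes it is close to a log2 fold change, and for rare transcripts the transformation shrinks it. Expression level and sequencing depth cannot be read from these values, so levels are never compared between genes here. Values are listed in the order female 1, female 2, female 3 and male 1 for the hippocampus, and female 1, female 2, female 3 and male 2 for the neocortex. Neocortex male 1 was the only library of its litter, and after removal of the litter effect its value equals the mean of the neocortex group in every gene. It adds no information and is left out of the listed values. Hippocampus female 2 stood somewhat apart: the SD over genes of its difference from the other hippocampus libraries was 0.159 to 0.213, against 0.151 to 0.163 among the other 3. Its mean over 16 microglial markers was 0.417, against 0.0439 to 0.112 in the other hippocampus libraries. Tardbp, which encodes TDP-43 and is mutated in the other genotype, had values of -0.62, -0.93, -0.71 and -1.03 in hippocampus and -0.90, -0.99, -1.02 and -1.07 in neocortex. Its regional difference of 0.17 did not pass the test (SE 0.0911, adjusted p = 0.172).

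Gene expression differed between hippocampus and neocortex in 5141 of 17903 genes by the moderated test of limma at an adjusted p below 0.05. In the hippocampus 2460 genes were higher, which is 13.7% of all genes tested, and 2681 were lower, which is 15.0%. Counts of called list members below stand against these shares. Most differences were small. The median absolute difference was 0.293 among called genes and 0.109 among all genes, and the median signed difference of all genes was 0.00536. A difference of at least 1 was reached by 124 genes that were higher (0.693% of all genes tested) and 140 that were lower (0.782%), and a difference of at least 2 by 15 and 10. Library ranges of the 2 regions did not overlap in 5814 genes, or 32.5%. In whole tissue, more cells of a type and more RNA per cell cannot be told apart. Omission of 1 library left between 112 and 150 genes higher by at least 1 and between 137 and 156 lower by at least 1.

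**Figure D1:**
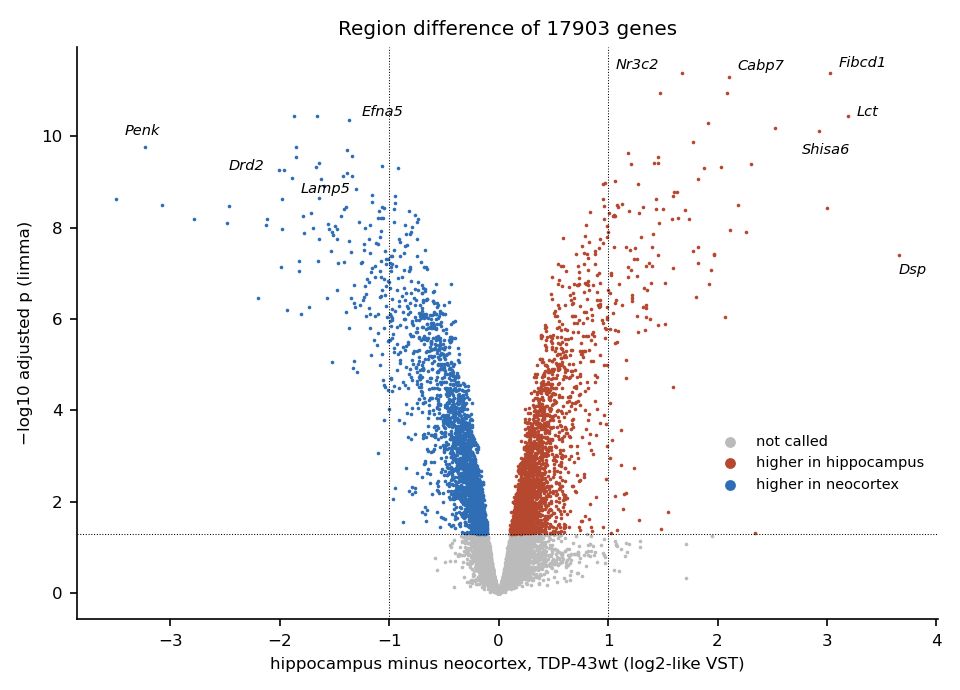
Region difference of each of the 17903 genes tested in TDP-43wt mice (horizontal axis, hippocampus minus neocortex on the log2-like VST scale) against the −log10 of its adjusted p from limma (vertical axis). Red points are the 2460 genes called higher in hippocampus, blue points the 2681 called higher in neocortex and grey points genes that were not called; dotted lines mark differences of -1 and 1 and an adjusted p of 0.05, and the outermost named genes are Dsp at 3.65 and Penk at -3.23.

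Dentate granule neuron genes led the hippocampal side. Of 15 dentate gyrus markers 9 were higher in hippocampus, 1 was lower and 5 were not called, with a median difference of 0.731. Dsp, the desmosomal plaque protein desmoplakin and a marker of granule neurons, had the highest difference of all named genes. Its values were 3.87, 3.62, 3.48 and 3.80 in hippocampus and 0.29, -0.13, 0.071 and -0.088 in neocortex, a difference of 3.65 (SE 0.252, adjusted p = 4.04e-08). Lct, which encodes lactase and is likewise used as a granule neuron marker, stood at 3.18, 3.26, 3.21 and 3.15 in hippocampus and -0.072, 0.052, 0.053 and -0.0031 in neocortex. The difference of 3.19 (SE 0.108, adjusted p = 3.57e-11) was many times the spread within either region. C1ql2, a secreted protein of mossy fibre synapses that gathers kainate receptors, was at 2.81, 2.72, 2.78 and 2.74 against -0.028, -0.37, -0.28 and -0.27 and differed by 3.00 (SE 0.163, adjusted p = 3.68e-09). Prox1, the homeobox factor that sets granule neuron identity, was at 2.17, 2.01, 1.96 and 2.09 in hippocampus and 0.24, -0.09, 0.075 and 0.12 in neocortex, with a difference of 1.97 (SE 0.136). Of the other markers, Glis3, a zinc finger factor, differed by 1.45, Tdo2, a tryptophan-degrading enzyme, by 1.12, Dock10 by 0.96, Cyp7b1 by 0.73 and Sipa1l2 by 0.37. Hippocampus female 3 was lower than its group in Tdo2, at 0.65 against 1.25 to 1.30. Calb1, the calcium buffer calbindin, which upper-layer neurons of the neocortex share, had a difference of -0.23 (adjusted p = 0.0816), and Plk5 was lower in hippocampus by a difference of -0.31 (adjusted p = 0.0225), a call that was lost without neocortex female 1, neocortex female 3, hippocampus female 1 or hippocampus female 2.

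**Figure D2:**
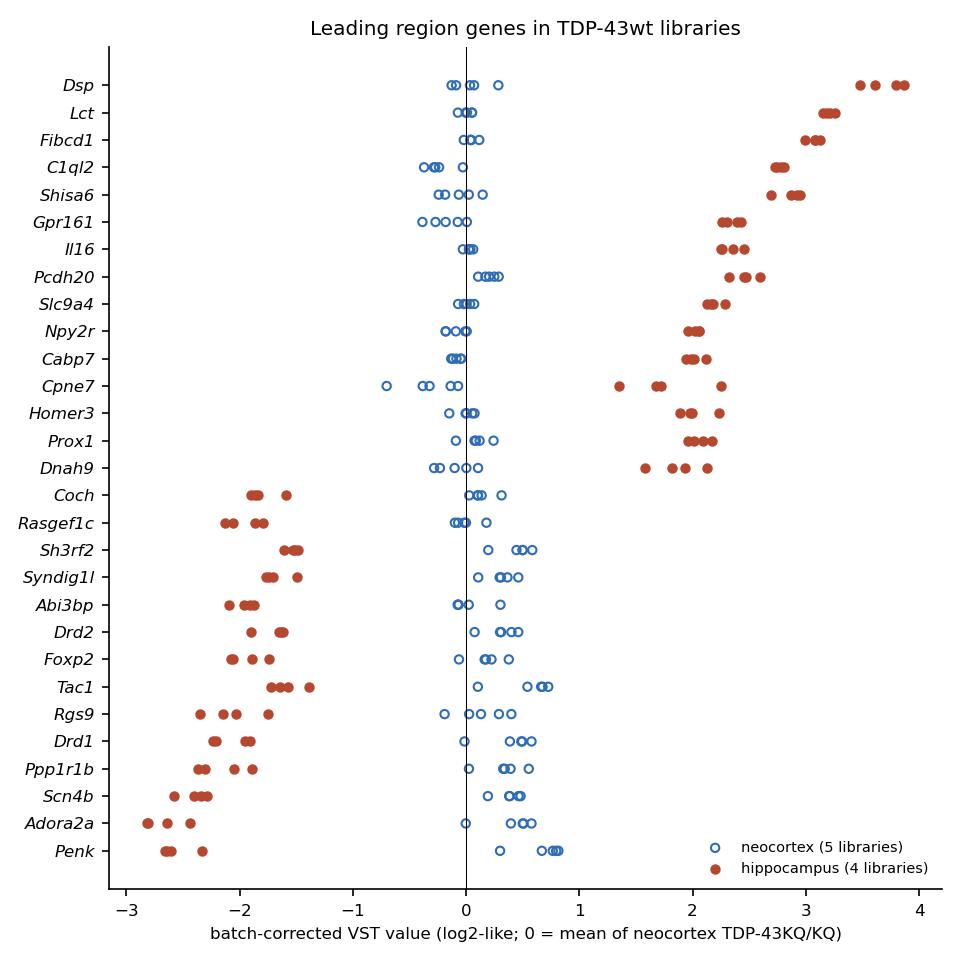
Values in each TDP-43wt library of the 15 genes with the highest and 14 of the 15 with the lowest regional difference among called genes whose libraries did not overlap between regions (horizontal axis, batch-corrected VST value on a log2-like scale; filled red, 4 hippocampus libraries; open blue, 5 neocortex libraries). Hippocampus values of Dsp run from 3.48 to 3.87 and those of Penk from -2.66 to -2.33, while the neocortex values of both lie between -0.13 and 0.82.

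Pyramidal neuron genes of the CA fields were higher in hippocampus as well. Of 9 CA1 markers 7 were higher and none lower (median 0.917), and of 16 CA2 and CA3 markers 11 were higher and 1 lower (median 0.381). Fibcd1, a receptor for acetylated sugars and a marker of CA1 neurons, had the smallest adjusted p of these lists. It was at 3.13, 3.08, 3.08 and 2.99 in hippocampus and 0.038, -0.02, 0.044 and 0.12 in neocortex, a difference of 3.03 (SE 0.0788, adjusted p = 4.14e-12). Spink8, a serine protease inhibitor of CA1, stood at 1.76, 1.99, 1.91 and 1.89 against -0.01, 0.088, -0.081 and 0.066 and differed by 1.87 (SE 0.0835). Lefty1, an antagonist of Nodal signalling, differed by 1.28, and the POU factor Pou3f1 by 0.92. Wfs1, which encodes wolframin and also marks neurons outside CA1, was not called (0.18, adjusted p = 0.456). Among CA2 and CA3 markers the transcription factor St18 was at 1.58, 1.57, 1.56 and 1.56 in hippocampus and -0.11, 0.11, -0.033 and -0.053 in neocortex (difference 1.59, SE 0.117). Iyd differed by 0.93, the CA2 and CA3 adhesion protein Amigo2 by 0.90, and Rgs14, a signalling inhibitor of CA2 neurons, by 0.61. Coch, the extracellular protein cochlin, was the only member of this list that was lower in hippocampus. It was at -1.90, -1.83, -1.86 and -1.59 in hippocampus and 0.028, 0.11, 0.31 and 0.10 in neocortex, a difference of -1.93 (SE 0.173, adjusted p = 6.51e-07).

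Several genes outside the marker lists were among the 15 highest. Shisa6, an auxiliary subunit of AMPA receptors, was at 2.92, 2.70, 2.95 and 2.87 in hippocampus and 0.15, -0.24, -0.18 and 0.024 in neocortex (difference 2.92, SE 0.108, adjusted p = 7.74e-11). Gpr161, an orphan receptor of the primary cilium, differed by 2.53, the cytokine gene Il16 by 2.31 and the protocadherin Pcdh20 by 2.26. Npy2r, the Y2 receptor for neuropeptide Y, was at 2.06, 2.06, 1.96 and 2.02 against -0.18, 0.0057, -0.0064 and -0.18, a difference of 2.12. The calcium-binding protein gene Cabp7 differed by 2.10 with an SE of 0.0584, and the postsynaptic scaffold gene Homer3 by 2.03. Slc9a4, a sodium and proton exchanger, differed by 2.18 and Dnah9, a heavy chain of ciliary dynein, by 1.97. Cpne7, a calcium-dependent membrane-binding protein, had the widest range of hippocampus values among the 15 highest, with 2.25, 1.35, 1.67 and 1.72 in hippocampus and -0.07, -0.70, -0.38 and -0.14 in neocortex. Its difference was 2.07 (SE 0.192).

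The neocortex side was led by genes of striatal projection neurons, the GABAergic output neurons of the striatum, which lies directly beneath the neocortex. All 15 striatal markers tested were higher in neocortex than in hippocampus, 14 of them by at least 1, and their median difference was -2.01. Penk, the enkephalin precursor of the indirect pathway, had the lowest difference of the genes named here. Its values were -2.64, -2.33, -2.60 and -2.66 in hippocampus and 0.30, 0.82, 0.77 and 0.80 in neocortex, a difference of -3.23 (SE 0.127, adjusted p = 1.73e-10). The adenosine receptor gene Adora2a, of the same pathway, differed by -3.07, with -2.44, -2.64, -2.81 and -2.81 in hippocampus and -0.0026, 0.51, 0.50 and 0.58 in neocortex. Ppp1r1b, which encodes the dopamine-regulated phosphatase inhibitor DARPP-32, differed by -2.48, the dopamine receptor genes Drd1 and Drd2 by -2.46 and -2.01, and Rgs9, Tac1, Syndig1l and Pde10a by -2.20, -2.12, -1.98 and -1.82. Scn4b, a sodium channel beta subunit outside the list, was at -2.40, -2.28, -2.34 and -2.58 in hippocampus and 0.19, 0.48, 0.39 and 0.46 in neocortex (difference -2.78). Abi3bp, Sh3rf2 and Rasgef1c, also outside the list, differed by -1.98, -1.98 and -1.96.

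These markers also varied between neocortex libraries. The mean over the 15 genes was 0.0665 in neocortex female 1, against 0.425, 0.448 and 0.437 in female 2, female 3 and male 2, and -1.67 to -1.82 in hippocampus. Over 15 upper-layer markers the same neocortex libraries differed by less, from -0.0914 to -0.0345. Neocortex female 1 also stood apart in other lists. Its mean over 14 thalamic markers was 0.138, against -0.158 to -0.0891 in female 2, female 3 and male 2. Over 15 choroid plexus markers it was 0.642, against -0.351 to -0.121 in those libraries. All 15 striatal markers were still called without any 1 library, neocortex female 1 included, and under every other alternative. How much striatal tissue a neocortex library held was not measured. The deposited values do not separate striatal cells in the dissected piece from cortical cells that express these genes, and the part of either in the differences of the neocortex side was not tested.

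Layer markers of the neocortex were called in both directions. Of 15 upper-layer markers 11 were lower in hippocampus, 2 were higher and 2 were not called (median -0.902). Lamp5, a membrane protein of upper-layer neurons and of a class of interneurons, stood at -1.76, -1.58, -1.68 and -1.64 in hippocampus and 0.24, 0.41, 0.15 and 0.074 in neocortex (difference -1.88, SE 0.0885, adjusted p = 8.36e-10). Cux2, a homeobox factor of layers 2 to 4, was at -1.38, -1.29, -1.21 and -1.21 against -0.11, -0.27, -0.17 and -0.18, a difference of -1.09 (SE 0.127). Igfn1 differed by -1.80, the Wnt pathway agonist Rspo1 by -1.32, Stard8 by -1.31, Otof by -1.13 and the layer 4 factor Rorb by -0.90. Hsd11b1, which regenerates active glucocorticoid, and the sodium channel subunit Scnn1a went the other way, with differences of 0.82 and 0.39. Of 22 deep-layer markers 10 were lower in hippocampus, 8 were higher and 4 were not called (median -0.145). Foxp2, a factor of layer 6 neurons that striatal neurons also express, was at -1.74, -2.05, -2.07 and -1.89 in hippocampus and -0.062, 0.16, 0.38 and 0.22 in neocortex, a difference of -2.12 (SE 0.123). Syt6, a synaptotagmin of layer 6 corticothalamic neurons, differed by -1.85 and Rprm by -0.69. Crym, a thyroid hormone-binding protein, was at 1.24, 1.21, 1.17 and 1.11 in hippocampus and -0.13, 0.076, 0.037 and -0.0077 in neocortex and differed by 1.19 (SE 0.0658). Fezf2 and Bcl11b, the factors of subcortically projecting layer 5 neurons, were also higher in hippocampus, by 0.48 and 0.39, where granule and pyramidal neurons are known to use Bcl11b as well.

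**Figure D3:**
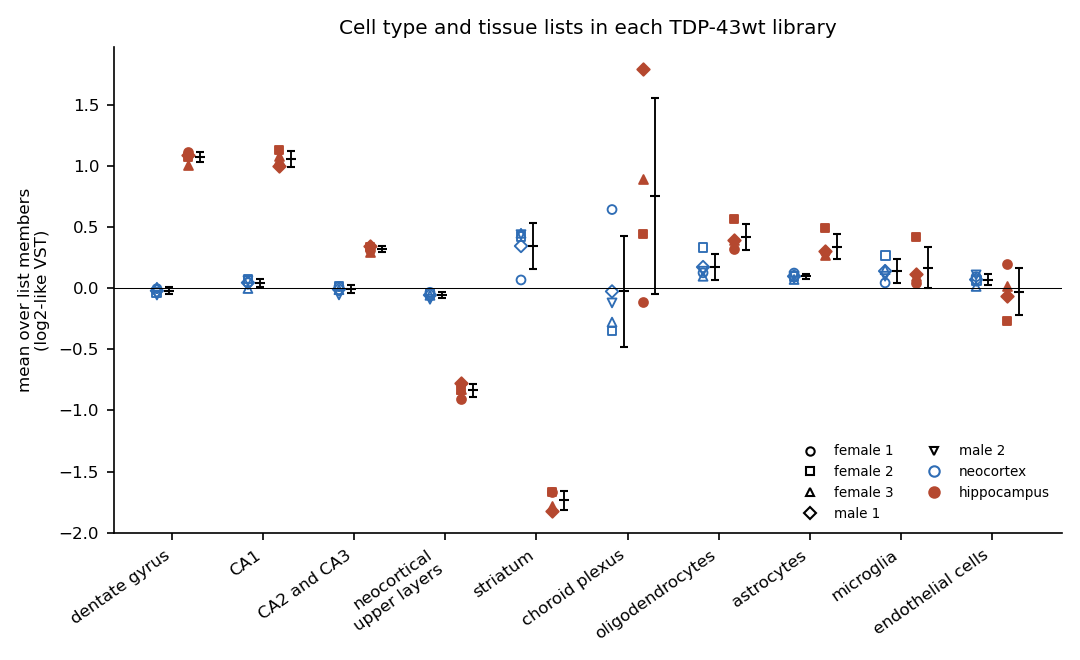
Mean over the members of 10 cell type and tissue lists in each TDP-43wt library (vertical axis, batch-corrected VST value on a log2-like scale; blue open symbols, neocortex; red filled symbols, hippocampus; symbol shapes mark the library number). Black bars are the group mean and SD, for the neocortex without male 1, whose value equals the group mean; the dentate gyrus list lies between 1.01 and 1.11 in hippocampus, and the striatum list of neocortex female 1 at 0.0665 lies below those of the other neocortex libraries.

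Promoters are shown for genes that lead each side, for the content of CpG dinucleotides at their starts. Each sequence has 300 bases, from 250 before to 50 after the start of the RefSeq transcript, 5′ to 3′ on the strand of the gene, in the GRCm38.p6 assembly. CpG dinucleotides are in capitals. The genes are the first 2 of each ranking that had an entry in the promoter table, and all 4 are protein-coding. Dsp lies at chr13:38151294-38198577 on the plus strand and Lct at chr1:128284756-128328318 on the minus strand, and their promoter windows are chr13:38151044-38151343 and chr1:128328269-128328568. Scn4b lies at chr9:45138624-45154155 on the plus strand and Drd1 at chr13:54051183-54055658 on the minus strand, with windows chr9:45138374-45138673 and chr13:54055609-54055908.
Dsp: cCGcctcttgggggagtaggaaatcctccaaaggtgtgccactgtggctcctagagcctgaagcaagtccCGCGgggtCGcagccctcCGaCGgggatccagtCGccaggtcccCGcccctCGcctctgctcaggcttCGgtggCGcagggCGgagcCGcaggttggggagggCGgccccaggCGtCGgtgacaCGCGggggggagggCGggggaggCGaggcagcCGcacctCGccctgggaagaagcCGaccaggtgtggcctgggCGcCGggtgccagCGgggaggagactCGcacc
Lct: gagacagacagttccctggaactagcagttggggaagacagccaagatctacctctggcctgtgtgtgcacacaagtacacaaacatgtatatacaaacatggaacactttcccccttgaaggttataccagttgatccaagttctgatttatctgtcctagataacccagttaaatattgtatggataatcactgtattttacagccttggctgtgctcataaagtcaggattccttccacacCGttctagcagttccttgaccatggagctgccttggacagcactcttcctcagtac
Scn4b: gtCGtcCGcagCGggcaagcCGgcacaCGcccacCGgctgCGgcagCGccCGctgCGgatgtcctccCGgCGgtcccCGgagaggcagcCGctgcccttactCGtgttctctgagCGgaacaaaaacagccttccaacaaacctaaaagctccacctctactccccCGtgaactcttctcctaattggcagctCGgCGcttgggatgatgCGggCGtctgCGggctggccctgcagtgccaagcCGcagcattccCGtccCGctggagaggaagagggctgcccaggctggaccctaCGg
Drd1: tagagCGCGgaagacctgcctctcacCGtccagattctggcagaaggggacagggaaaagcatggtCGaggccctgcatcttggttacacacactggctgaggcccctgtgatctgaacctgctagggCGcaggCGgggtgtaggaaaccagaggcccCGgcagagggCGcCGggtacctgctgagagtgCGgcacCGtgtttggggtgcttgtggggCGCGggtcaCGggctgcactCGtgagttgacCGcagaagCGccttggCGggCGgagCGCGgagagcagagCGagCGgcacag
The Dsp window holds 27 CpG dinucleotides, that of Lct 1, that of Scn4b 26 and that of Drd1 23. The median over the 14033 tested genes with a promoter entry is 18. Dsp and Lct, which lead the hippocampal side, lie on opposite sides of that median.

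Tissue next to the dissected regions was followed with 4 further lists. The choroid plexus, the epithelium of the ventricles that secretes cerebrospinal fluid, lies against the hippocampus. None of its 15 markers was called, although all 15 had a positive difference (median 0.661). In the 9 wild-type libraries alone, with or without a litter term, and in the 20 libraries without sex and litter terms, 3 of the 15 were called higher. Ttr, the thyroxine carrier that is its most abundant transcript, was at -0.22, 1.86, 2.40 and 3.94 in hippocampus and 2.85, -0.59, -1.43 and 0.29 in neocortex. The regions overlapped, and the difference of 1.71 had an SE of 1.65 (adjusted p = 0.47). Across libraries the mean of the list ran from -0.111 to 1.79 in hippocampus and from -0.351 to 0.642 in neocortex. Of 10 ependymal markers 4 were higher in hippocampus (median 0.291) and Hydin, a protein of motile cilia, differed by 0.70. That count fell to 1 or 2 when any 1 of the informative libraries other than neocortex female 2 or hippocampus female 1 was left out. It rose to 8 in the 9 wild-type libraries alone, with or without a litter term, and in the 20 libraries without sex and litter terms. Of 14 meningeal fibroblast markers 2 were higher, against 13.7% of all genes, Dcn by 1.59 and Lum by 0.40, while collagen genes of the list such as Col1a2 (-0.40, adjusted p = 0.13) were not called. Dcn, the matrix proteoglycan decorin, was at 1.58, 1.46, 1.07 and 1.34 against -0.23, -0.39, -0.13 and -0.16. Of 14 thalamic markers 2 were higher (14.3%) and 4 were lower (28.6%), against 13.7% and 15.0% of all genes (median -0.0819). Tcf7l2, a defining factor of thalamic neurons, was not called (0.013, adjusted p = 0.954).

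Some astrocyte and oligodendrocyte markers were higher in hippocampus, and no microglial or endothelial marker was called. Of 19 astrocyte markers 10 were higher and none lower (median 0.189). Gfap, the intermediate filament of astrocytes, was at 1.44, 1.84, 1.52 and 1.48 in hippocampus and 0.33, 0.45, 0.18 and 0.26 in neocortex, a difference of 1.26 (SE 0.116, adjusted p = 8.57e-07). Cd44, a hyaluronan receptor, differed by 0.55 and the filament gene Vim by 0.34. Hippocampus female 2 was the highest library in the mean of the list, at 0.489 against 0.267 to 0.302 in the others. Without that library, neocortex female 2 or neocortex female 3, 6 of the 19 were called. Oligodendrocyte markers had 8 of 18 members higher and none lower (median 0.243), with the myelin regulator Myrf at 0.47 and Mobp, a protein of compact myelin, at 0.31. That count was 3 without neocortex female 3, 4 without neocortex male 2 or hippocampus female 2, and 5 without neocortex female 1 or hippocampus female 3. Of 12 oligodendrocyte precursor markers 6 were higher and 1 lower, with Vcan at 0.50 and Lhfpl3 at -0.43, and 3 were higher without neocortex female 3 or hippocampus female 3. None of 16 microglial markers was called (median 0.0261, range -0.0865 to 0.158), and none of 14 endothelial markers was (median -0.0996), although 2 endothelial markers were lower when hippocampus female 1 was left out. Of 12 pericyte and smooth muscle markers only Cspg4, which precursors of oligodendrocytes share, was called (0.33), and that call was lost without neocortex female 2, neocortex female 3, hippocampus female 1 or hippocampus female 3. Of 14 markers of immature neurons and precursors 3 were higher (21.4%) and 2 lower (14.3%), against 13.7% and 15.0% of all genes. Hopx and Neurod1 differed by 0.96 and 0.64, and Dcx and Tubb3, which encode cytoskeletal proteins of young neurons, by -0.50 and -0.48.

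Transcription factors of the pallium, the embryonic origin of both regions, divided between them. Of 55 such factors 24 were higher in hippocampus and 20 were lower, and 13 of these differed by at least 1. On the hippocampal side stood Lhx9, a LIM homeobox factor, at 1.94, 1.84, 1.69 and 1.89 in hippocampus and 0.12, -0.17, -0.092 and -0.19 in neocortex (difference 1.93, SE 0.152). Zbtb20, a zinc finger factor required for CA1 identity, was at 1.73, 1.38, 1.88 and 1.58 against 0.081, -0.43, -0.19 and -0.10 and differed by 1.80 (SE 0.151). The neuronal bHLH genes Neurod6 and Neurod2 differed by 1.32 and 0.91, Bhlhe22 by 1.04, and the nuclear factor I genes Nfib, Nfia and Nfix by 0.80, 0.57 and 0.49. On the neocortical side Mef2c, an activity-regulated factor, was at -1.63, -1.29, -1.67 and -1.52 in hippocampus and -0.019, 0.13, 0.13 and -0.077 in neocortex (difference -1.57, SE 0.132). Tbr1, a factor of layer 6 neurons, differed by -1.07, and the POU factor Pou3f2 by -1.03. Meis2, a homeobox factor that striatal neurons express strongly, differed by -1.37. The part of striatal tissue in this difference was not tested.

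Receptors for glutamate were called in both directions. Of 18 ionotropic subunits 8 were higher in hippocampus and 2 lower (median 0.126). Gria1, the GluA1 subunit of AMPA receptors, was at 1.39, 1.29, 1.38 and 1.31 in hippocampus and 0.077, -0.012, 0.027 and 0.18 in neocortex (difference 1.28, SE 0.0618, adjusted p = 1.11e-09). Grik4, a high-affinity kainate subunit of CA3 neurons, was at 1.07, 0.60, 0.85 and 0.89 against -0.18, -0.28, -0.16 and -0.22 and differed by 1.06 (SE 0.105). The NMDA subunit genes Grin2a and Grin2b differed by 0.77 and 0.57, and Grin1, the subunit all NMDA receptors share, by -0.041 without passing the test (adjusted p = 0.688). Lower in hippocampus were Grik3 (-0.63) and Gria4 (-0.43). Without neocortex female 1 or neocortex female 2, 5 of the 18 were called higher. Of 7 metabotropic receptors tested 3 were higher, among them Grm5 at 0.43, and 3 lower, among them Grm4 at -0.69. Auxiliary subunits of AMPA and kainate receptors, which set receptor trafficking and gating, had 7 of 19 members higher and 9 lower. Beside Shisa6, the higher ones were led by Cacng8 at 1.01 and Cnih2 at 0.99. Gsg1l, a subunit that slows receptor recovery, was at -1.09, -1.11, -1.03 and -1.15 in hippocampus and 0.10, -0.017, 0.037 and 0.032 in neocortex (difference -1.14), and Olfm2 and Olfm3 differed by -0.96 and -0.84.

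GABA receptor subunits and genes of GABAergic neurons were called in both directions. Of 19 receptor subunits tested 4 were higher and 10 lower. Gabra5, the alpha5 subunit of extrasynaptic receptors known for its abundance in hippocampus, was at 1.51, 1.79, 1.54 and 1.54 in hippocampus and 0.18, 0.19, 0.075 and 0.18 in neocortex (difference 1.44, SE 0.0744, adjusted p = 2.36e-09). Gabrd, the delta subunit that mediates tonic inhibition, was at -1.36, -1.23, -1.29 and -1.24 against -0.022, 0.17, 0.089 and 0.0027 and differed by -1.34 (SE 0.0622). Gabra3 differed by -0.86. Of 29 interneuron identity genes 14 were lower (48.3%), 3 were higher (10.3%) and 12 were not called. Among all genes 15.0% were lower and 13.7% higher. Slc32a1, the vesicular GABA transporter, was at -0.48, -0.39, -0.45 and -0.51 in hippocampus and 0.25, 0.37, 0.28 and 0.17 in neocortex (difference -0.72), and the GABA-synthesizing enzymes Gad1 and Gad2 differed by -0.47 and -0.63. Among class markers Vip differed by -0.87, Npy by -0.66 and Pvalb by -0.59, while Sst was not called (0.095, adjusted p = 0.262). The higher ones were Prox1, described above among the dentate gyrus markers, Nos1 (1.02) and Htr3a (0.51). Striatal projection neurons are GABAergic too and share Gad1, Gad2 and Slc32a1 with interneurons, and their 15 markers were all higher in the same neocortex libraries. Their part in these differences was not tested.

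Voltage-gated potassium channels, which shape firing, were called in both directions. Of 40 genes 20 were lower and 6 higher, against 15.0% and 13.7% of all genes (median -0.117). Members of the ether-à-go-go family led the lower ones. Kcnh5 was at -1.66, -1.75, -1.53 and -1.47 in hippocampus and 0.052, 0.15, 0.01 and -0.045 in neocortex (difference -1.64, SE 0.071, adjusted p = 3.95e-10). Kcnh4 differed by -1.37, Kcnh1 by -0.98, Kcnh3 by -0.82 and Kcnh7 by -0.81. Among modulatory subunits, which form no channel alone, Kcnv1 differed by -1.18 and Kcnf1 by -0.88. Kcng2, another modulatory subunit, was the highest member at 1.18, 1.20, 1.26 and 1.30 against -0.046, -0.12, -0.10 and -0.19 (difference 1.35, SE 0.11).

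Monoamine and acetylcholine receptors had 10 of 41 members higher in hippocampus and 20 lower (median -0.162). Drd1 and Drd2, described above among the striatal markers, were the lowest of them. Drd5, the other receptor of the D1 class, was at 1.45, 1.50, 1.40 and 1.52 in hippocampus and -0.021, 0.075, 0.089 and 0.045 in neocortex, a difference of 1.42 in the opposite direction (SE 0.0611, adjusted p = 3.95e-10). Serotonin receptors divided as well. Htr4 was at 1.33, 1.23, 1.20 and 1.16 in hippocampus and -0.32, 0.056, 0.047 and 0.088 in neocortex (difference 1.26), and Htr5b and Htr1a, the main inhibitory serotonin receptor, differed by 0.93 and 0.82. Htr2a, the excitatory receptor of deep-layer pyramidal neurons, differed by -1.08 and Htr1d by -1.19. Adra1b, an alpha-1 adrenergic receptor, was at -1.34, -1.47, -1.55 and -1.38 against -0.036, -0.019, -0.025 and -0.10 (difference -1.39, SE 0.0557). For acetylcholine, the nicotinic subunit gene Chrna7 differed by 0.73 and the muscarinic receptor genes Chrm4 and Chrm2 by -0.80 and -0.55. Chrm4 is expressed by striatal neurons of the direct pathway.

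Of 27 neuropeptide genes 13 were lower in hippocampus, 5 were higher and 9 were not called (median -0.136). The lowest members were Penk (-3.23), Tac1 (-2.12) and Pdyn (-1.70), which encode the precursors of enkephalin, substance P and dynorphin and are the peptides of striatal projection neurons. Adcyap1, the precursor of the peptide PACAP, was at -0.77, -0.46, -0.58 and -0.63 in hippocampus and 0.46, 0.58, 0.38 and 0.40 in neocortex (difference -1.07, SE 0.0818). Cartpt differed by -0.99, and Crh, the corticotropin-releasing hormone, by -0.81. Grp, gastrin-releasing peptide, was the highest member at 0.77. Without any 1 of the informative libraries, 2 or 3 of the 27 were called higher.

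Receptors for corticosteroids differed in opposite directions. Nr3c2, the mineralocorticoid receptor, known for its high level in hippocampal neurons, was at 1.55, 1.55, 1.62 and 1.55 in hippocampus and -0.11, -0.13, -0.16 and -0.039 in neocortex. Its difference of 1.68 had the smallest SE of the genes named here that were higher by at least 1 (0.0447, adjusted p = 4.14e-12). Nr3c1, the glucocorticoid receptor, was at -0.30, 0.017, -0.22 and -0.20 against 0.031, 0.22, 0.10 and 0.051, a difference of -0.28 (SE 0.0755, adjusted p = 0.0118) that was not called without hippocampus female 3. Of the 10 genes of this list 3 were higher and 4 lower, and the corticotropin-releasing hormone receptor gene Crhr1 was the lowest at -0.58. Neurotrophins and their receptors had 5 of 15 members higher and 5 lower. Ntf3, neurotrophin 3, and its receptor gene Ntrk3 were higher in hippocampus by 0.80 and 0.55. Gfra2, the receptor for neurturin, differed by -0.93 and the sorting receptor gene Sorcs1 by -1.13. Bdnf was not called (0.26, adjusted p = 0.16).

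Adhesion molecules and synapse organizers separated the regions gene by gene. Of 39 synapse organizers 17 were lower in hippocampus and 8 higher (median -0.114). Cbln2, a secreted cerebellin that bridges neurexins to postsynaptic receptors, was at -1.08, -0.81, -0.93 and -0.83 in hippocampus and 0.33, 0.47, 0.16 and 0.059 in neocortex (difference -1.17, SE 0.0872). The pentraxin gene Nptx2 differed by -1.08 and its relative Nptx1 by 0.55. Leucine-rich repeat proteins of the postsynaptic side divided, with Lrrtm3 at -0.94, Lrrtm2 at -0.32, Lrrtm1 at 0.67 and Lrrtm4 at 0.34. Of 15 classical cadherins 8 were lower and 4 higher (median -0.412), with Cdh7, Cdh22, Cdh6 and Cdh4 at -1.11, -1.07, -1.05 and -0.98 and Cdh9 and Cdh8 at 0.57 and 0.49. Ephrins and Eph receptors, a contact-dependent guidance system, had 8 of 22 members higher and 4 lower. Receptors made up most of the higher ones. Epha6 was at 1.54, 1.41, 1.66 and 1.47 in hippocampus and -0.10, -0.19, -0.15 and 0.0028 in neocortex (difference 1.63, SE 0.0819), and Epha7, Epha3, Epha4 and Epha5 differed by 1.07, 0.79, 0.74 and 0.58. Efna5, a ligand of these receptors, was the lowest member at -1.37, -1.33, -1.41 and -1.29 against 0.011, 0.0065, 0.033 and 0.024 (difference -1.37, SE 0.0476, adjusted p = 4.38e-11).

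Immediate early genes, which neurons induce within minutes of activity, all passed the test (median -0.693). Of the 16 genes 13 were lower in hippocampus (81.2%) and 3 higher (18.8%), against 15.0% and 13.7% of all genes. Egr1 was at -1.30, -1.13, -1.05 and -1.11 in hippocampus and 0.50, 0.31, 0.023 and -0.12 in neocortex (difference -1.33, SE 0.157, adjusted p = 1.17e-05). Fos was at -0.65, -0.83, -0.82 and -0.53 against 0.43, 0.047, 0.23 and 0.058 and differed by -0.90, and Arc, a regulator of AMPA receptor uptake, and Npas4 differed by -0.70 and -0.69. The exceptions were Nr4a3, at 1.36, 1.24, 1.14 and 1.28 in hippocampus and 0.026, -0.28, -0.064 and -0.21 in neocortex (difference 1.39, SE 0.129), Jun (0.88) and Fosl2 (0.45). Neocortex female 1 had the highest mean of the list in its region, 0.219 against -0.0693 to 0.0529 in female 2, female 3 and male 2.

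**Figure D4:**
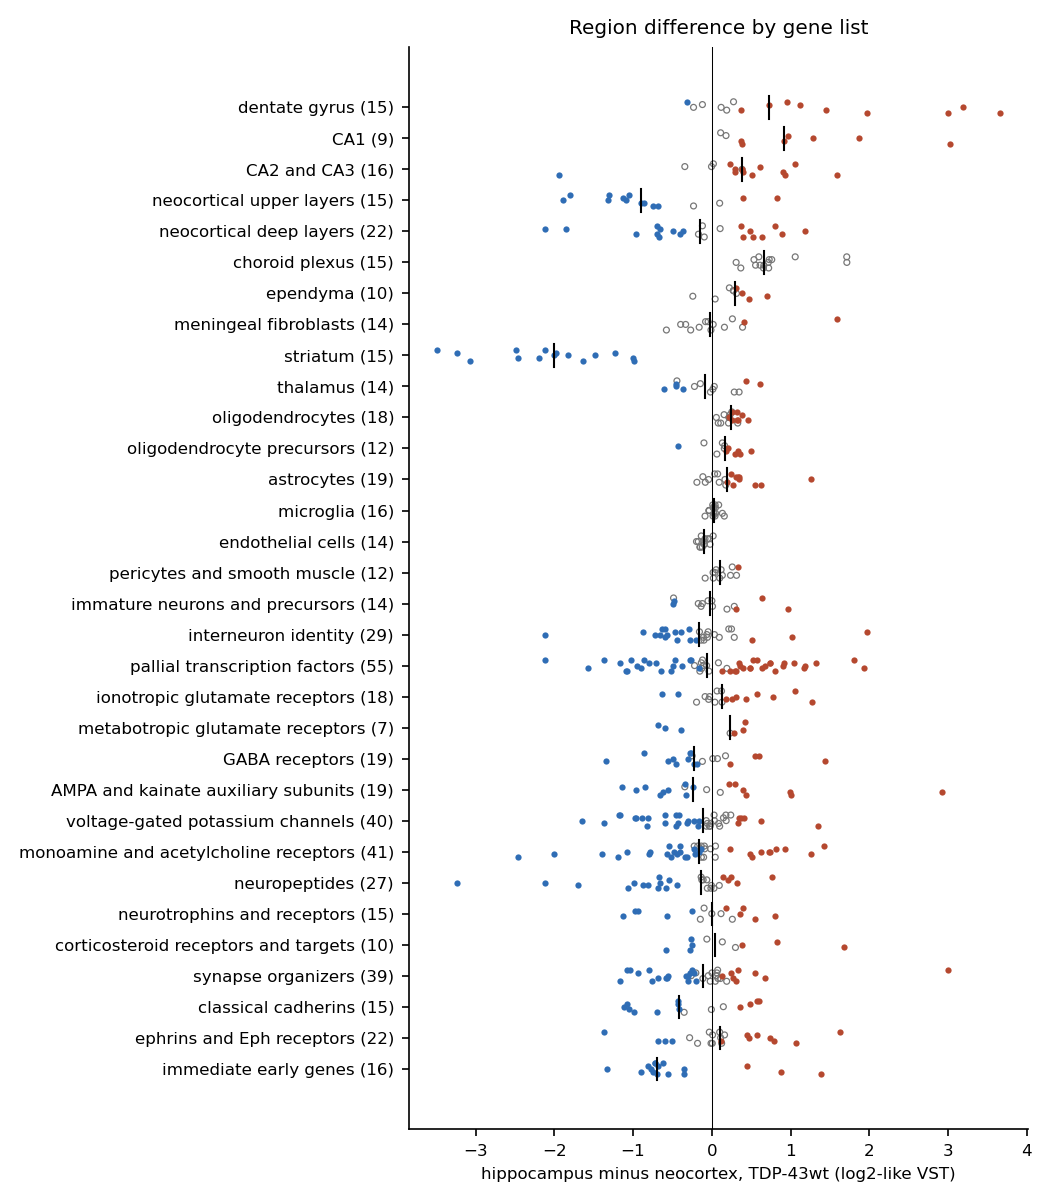
Regional difference of every tested member of the 32 gene lists in TDP-43wt mice (horizontal axis, hippocampus minus neocortex on the log2-like VST scale; number of tested members in brackets). Red and blue points are members called higher and lower in hippocampus, open grey points were not called and black bars are medians; the striatum list has the lowest median (-2.01) and the CA1 list the highest (0.917).

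The regional pattern was also present in TDP-43KQ/KQ mice of the same age, whose 5 hippocampus and 6 neocortex libraries were fitted on their own. In that fit 15.6% of all genes were called higher and 16.9% lower in hippocampus. Of the 124 genes higher by at least 1 in TDP-43wt mice 120 were called higher, of the 140 lower ones 139 were called lower, and none had the opposite sign. In the joint fit of all 20 libraries Dsp differed by 3.65 in TDP-43wt and 3.40 in TDP-43KQ/KQ mice, Fibcd1 by 3.03 and 3.14, C1ql2 by 3.00 and 2.30, and Penk by -3.23 and -2.59. A direct test of whether the regional difference depended on genotype called no gene in limma (smallest adjusted p = 0.706), while 1043 of 17903 genes had an unadjusted p below 0.05. Without sex and litter terms 70 genes were called, in a fit that does not deduct the degrees of freedom used by their earlier removal. For C1ql2 the adjusted p of that test was 0.773 and for Penk 0.706, so these smaller values in TDP-43KQ/KQ mice were not shown to differ.

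**Figure D5:**
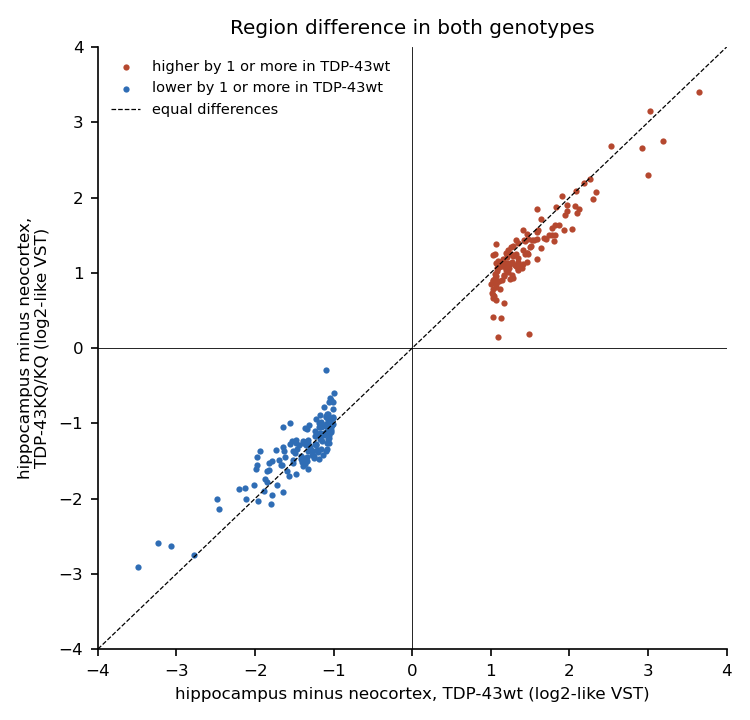
Regional difference of the 264 genes called with a difference of at least 1 in TDP-43wt mice (horizontal axis) against the regional difference of the same genes in TDP-43KQ/KQ mice (vertical axis), both hippocampus minus neocortex on the log2-like VST scale. Red points are the 124 genes higher and blue points the 140 lower in hippocampus of TDP-43wt mice, the dashed line marks equal differences, and no point has opposite signs on the 2 axes.

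Gene span and class were taken from RefSeq. By this annotation, the median gene span was 60.0 kb among the 124 genes higher by at least 1, 41.2 kb among the 140 lower by at least 1 and 22.0 kb among all genes tested. Long noncoding RNAs made up 4 of the 124 and 2 of the 140, or 3.23% and 1.43%, against 6.22% of all genes tested. Within classes, 12.3% of 1110 long noncoding RNAs and 13.8% of 16550 protein-coding genes were called higher, and 8.47% and 15.6% were called lower. These shares are descriptions and were not tested.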

How the data were processed

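Total RNA of frozen tissue was depleted of ribosomal RNA and sequenced. Per the study's methods and the submitters' processing notes, the authors used cutadapt for trimming, STAR 2.5.2b for alignment to mm10 and Salmon for quantification, applied the variance-stabilizing transformation (VST) of DESeq2 1.34.0 in R 4.1.0 and removed sex and litter effects with limma. The deposited values are on this log2-like scale, with the mean of each gene in neocortex TDP-43KQ/KQ libraries at 0. Depth per library is not contained in them, so precision was taken from the spread between libraries alone.

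Here the 20 libraries were fitted in 4 groups of region and genotype with sex and litter terms (limma 3.58.1 in R 4.3.3, lmFit and eBayes, 11 residual degrees of freedom), with Benjamini-Hochberg adjustment over 17903 genes. The wild-type contrast equals the difference of the group means. Genes with ties (within 1e-06) between libraries of the same sex and litter in both regions were left out as lying at the floor of the transformation. The fit was tested on simulated data. Libraries were treated as independent; whether libraries of the 2 regions share a mouse is not labelled, and p-values measure the spread between these libraries. Alternatives were wild-type libraries alone with and without litter, no sex and litter terms, a replicate block, a random effect of female number (statmod 1.5.0), no filter or a stricter one, robust eBayes, median centring and omission of each wild-type library.

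Named genes were the 15 highest and 15 lowest called genes without overlap between regions (predicted genes left out), called members of each list by size, up to 6, with members that a sentence on a list needed, and Tardbp. A few of these genes are not reported here. Members and gene lists were chosen with earlier results of these data known. Gene spans, classes and promoters are from RefSeq (GRCm38.p6), in which 17855 of 17903 symbols matched a gene and 14033 had a promoter entry. Figures were drawn with Python 3.11.15 and matplotlib 3.10.9.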

Additional observations from a re-analysis of the deposited data

Results flagged for a closer look

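Single libraries that lay far from the other 3 of their group were searched among the genes named above and the means of the gene lists and families, with neocortex male 1 left out because it equals the mean of its group. The measure is the gap between the extreme library and its nearest neighbour as a share of the range of the group. It passed the limit of Dixon's test in 31 of 432 groups of 4 libraries. For independent values chance alone gives about 1 in 20. Here the removal of sex and litter ties the libraries and lists hold some of the same genes, so that rate is only a rough guide.

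Neocortex female 1 was the low library in striatal markers. The share of the range was 0.94 for the mean of the striatum list (0.0665 against 0.425 to 0.448), 0.904 for Penk, 0.867 for Adora2a, 0.848 for Drd1, 0.9 for Tac1 and 0.899 for Pdyn. The same library was low in Htr4 (0.9) and high in Nfix (0.967), Grin1 (0.874) and the means of the immature neuron list (0.919) and the auxiliary subunit list (0.906). All of the striatal markers and Pdyn were called lower in hippocampus without it.

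Hippocampus female 2 was the high library in Gabra5 (share 0.88), Neurod6 (0.889), Sst (0.89), Penk (0.841) and the mean of the astrocyte list (0.84), and the low one in Chrm4 (0.922). Hippocampus female 1 was high in Nos1 (0.897) and Neurod1 (0.888), and hippocampus female 3 was low in Tdo2 (0.922) and high in Nr3c2 (0.927) and the mean of the metabotropic glutamate receptor list (0.943). Hippocampus male 1 was low in Drd2 (0.854) and Grm5 (0.87) and high in Fosl2 (0.85). In neocortex, female 3 was low in Gabra5 (0.919) and Epha4 (0.883) and high in Abi3bp (0.979), female 2 was low in Neurod2 (0.855), and male 2 was low in Chrm2 (0.932) and high in Gria4 (0.861).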

How the results depend on the processing

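The count of called genes was between 4976 and 7703 under the alternatives that kept every library and between 3754 (without neocortex female 3) and 5975 (without hippocampus female 2) when 1 library was left out. Genes higher in hippocampus numbered 3822 with the 9 wild-type libraries and region alone and 3807 without sex and litter terms, in place of 2460, and 1685 to 3008 when 1 library was left out; genes lower numbered 2069 to 2967 then. Sex and litter were already removed from the values, and both fits leave out the degrees of freedom that this removal used. How much of the larger counts comes from this was not tested. Counts at a difference of at least 1 ranged from 249 to 298 when 1 library was left out. No gene depended on genotype in its regional difference under any omission of 1 library (0 to 0), and 70 did without sex and litter terms. Library numbers are shared between regions, and same-numbered females have the same litter in both (6, 6 and 4). The deviations of same-numbered females from their group means correlated at 0.114, 0.723 and -0.432. Removal of the litter effect ties these deviations to each other, so the correlations cannot show whether 2 libraries share a mouse. The labels do not pair the libraries, and they were treated as independent. With a replicate block for female number in the wild-type libraries 3071 genes were higher and 2861 lower, 5932 in all and 285 at a difference of at least 1; 14 in place of 8 oligodendrocyte markers, 7 in place of 4 ependymal markers and 2 in place of 0 choroid plexus markers were then higher, and 42 in place of 3 respiratory chain genes, 14 in place of 0 ribosomal protein genes and 12 in place of 5 proteasome genes lower. Under this block 13 clustered protocadherins were higher and 7 lower, in place of 5 and 11, 8 collagen genes were higher and 6 lower, and 64 zinc finger protein genes were higher. As a random effect, female number had a consensus correlation of 0.269 and 6120 genes were called. Of the 164 called genes named in the text, none changed direction under the 18 alternatives, and 3 lost the call, each only when a library was left out. Medians of the wild-type libraries lay between -0.00164 and 0.00755 and centring on them gave 2361 genes higher and 2774 lower. Since depth is not in the values, counting error of low genes could not be assessed.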

Other observations

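Gene families taken by symbol were counted in the same way, with 13.7% of all genes tested called higher and 15.0% lower. Several families lay at or below these shares. Of 20 regulators of G protein signalling tested, which shorten signals from receptors, 7 were lower in hippocampus (35%) and 2 higher (10%). Their mean was -0.333 to -0.304 in the hippocampus libraries and -0.022 to 0.0295 in the neocortex libraries. Of 22 phosphodiesterase genes, which degrade cyclic nucleotides, 8 were lower (36.4%) and 3 higher (13.6%). Rgs9 and Pde10a, the lowest of each family that the report names, are striatal markers, and the part of striatal tissue in these counts was not tested. Of 32 semaphorin, plexin and neuropilin genes, which guide axons, 12 were higher in hippocampus and 7 lower, against 13.7% and 15.0% of all genes. Clustered protocadherins, which give single neurons their surface identity, had 5 of 58 members higher (8.62%) and 11 lower (19%). The lower ones numbered 6 without neocortex female 1, neocortex male 2 or hippocampus male 1, and the higher ones 12 in the 9 wild-type libraries with region alone or without sex and litter terms. Zinc finger protein genes had 35 of 377 members higher (9.28%) and 33 lower (8.75%). The higher ones numbered 18 without hippocampus female 3, 21 without neocortex female 2, 22 without hippocampus female 1, 59 without hippocampus female 2 and 74 without sex and litter terms, and the lower ones 20 without neocortex female 3. Solute carriers had 43 of 342 members in each direction (12.6%), with 27 higher without neocortex female 2 and 77 without sex and litter terms. Collagen genes had 3 of 44 in each direction (6.82%). The higher ones numbered 13 without hippocampus female 2 and 1 without neocortex female 3, hippocampus female 1 or hippocampus female 3.

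The counts of 3 housekeeping families depended on single libraries. Of 84 cytosolic ribosomal protein genes 1 was higher and none lower, of 88 respiratory chain and ATP synthase genes 3 were lower and of 39 proteasome subunit genes 5 were lower. The largest of these shares, 12.8% of proteasome genes lower, stood against 15.0% of all genes. Without hippocampus female 2, 5 ribosomal protein genes, 16 respiratory chain genes and 10 proteasome genes were lower, and 2 ribosomal protein genes were higher. The respiratory chain count was 20 without neocortex male 2 and 0 without neocortex female 2, neocortex female 3, hippocampus female 1, hippocampus female 3 or hippocampus male 1. Those same omissions left 2 or 3 proteasome genes lower, and without neocortex female 2 the ribosomal protein genes called higher numbered 2. Signs were uneven, with a negative difference in 82 of the 88 respiratory chain genes (median -0.107) and in 34 of the 39 proteasome genes (median -0.0925). Library means of both families overlapped between regions. For respiratory chain genes they ran from -0.0729 to 0.17 in hippocampus and from -0.0234 to 0.27 in neocortex. For proteasome genes they ran from -0.062 to 0.106 and from 0.00997 to 0.185. Ribosomal protein means overlapped between regions, from -0.0586 in hippocampus female 1 to 0.345 in hippocampus female 2, and from 0.000502 in neocortex male 2 to 0.377 in neocortex female 2.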
